A study of Caenorhabditis elegans with 6 samples.

Results

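The lys genes of *Caenorhabditis elegans* are the subject here. The 10 members, lys-1 to lys-10, were found by symbol among the 46748 features of the count table. Lysozymes are enzymes that cut peptidoglycan, the polymer of the bacterial cell wall. The worm has a lys family, related to lysozymes of amoebae, and an ilys family of the invertebrate type. In this animal, which eats bacteria, lysozymes are known from the intestine, where they take part both in digestion and in defence against infection.

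RNA came from whole hermaphrodites of strain N2, the standard wild-type laboratory strain, at an age of 5 days. One group of 3 libraries carries the perturbation label Y6B3B.9, the name of a gene, and the other group of 3 carries the label L4440, the usual empty control plasmid in RNA interference experiments by feeding. All libraries share strain, sex, age and tissue label, and no other allele or agent is given. Nothing in the labels says that libraries of a group came from separate cultures, so p-values measure only the spread between these libraries, which may be technical.

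The libraries held 23103541 to 30014150 counted reads under the label Y6B3B.9 and 27518889 to 32012257 under the label L4440. The labelled gene itself was higher under its own label, at 35.8 ± 3.58 CPM (counts per 1000000 reads, with library sizes scaled by TMM) against 22.8 ± 0.387 CPM (SD, n = 3 each). Its log2 change (Y6B3B.9 over L4440) was 0.65 (SE 0.074), and 63.0% of all genes tested had a lower one. In which direction the labelled gene was perturbed is not given. "Rose", "fell", "higher" and "lower" therefore compare the label Y6B3B.9 with the label L4440. The difference between the labels was broad: 84.1% of the 14265 genes tested passed an adjusted p of 0.05 in edgeR's quasi-likelihood test with Benjamini-Hochberg adjustment over all of them, which is the test behind every adjusted p below unless another is named. Of those called, 55.2% were higher. This share was 67.4% when libraries were scaled by their totals alone, 49.7% with DESeq2's size factors, 47.6% with the DESeq2 Wald test and 45.9% with the trend of log2 change with gene length removed.

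Of the 10 lys genes, 7 rose, 0 fell, 1 was not called and 2 had too few reads to be tested. By the same rule 46.4% of all tested genes were higher and 37.7% were lower. A rise of at least 2-fold was reached by 5 members, against 23.6% of all tested genes. The median log2 change of the 8 tested members was 1.12, from -0.06 (lys-6) to 1.99 (lys-10), against a median of 0.22 over all tested genes. That background median moved by -0.15 with DESeq2's size factors and by 0.29 with library totals, and the 7 rises held their sign and their call with both. With the trend of log2 change with gene length removed, the background median moved by -0.24, 6 members were higher and 1 was lower. The 8 tested members had at least 37 reads in every library. In the 7 that rose, the libraries of the 2 labels did not overlap, which was so for 85.4% of all tested genes in either direction and 47.1% in the higher direction.

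**Figure D1:**
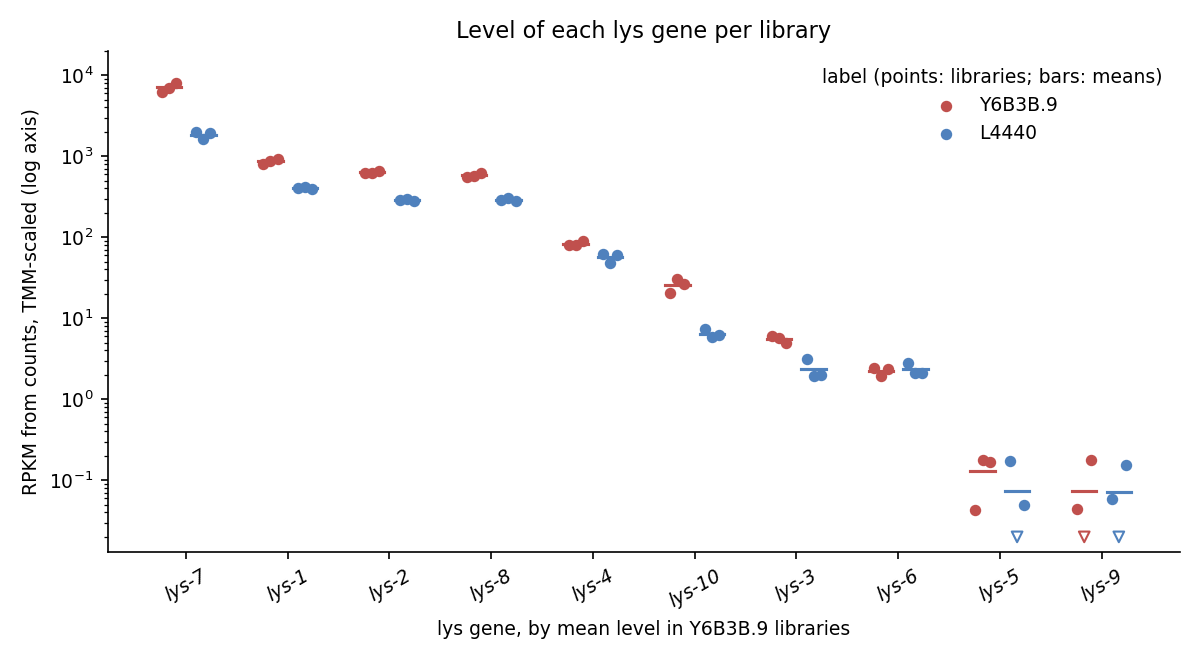
Level of each lys gene in each library, in RPKM (reads per kilobase of gene length, scaled by library size) computed from the counts with TMM scaling, on a log axis; points are libraries, bars are means of 3, and open triangles at the bottom edge are libraries with 0 reads. lys-7 lies above every other member under both labels, and lys-5 and lys-9 lie near 0.

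lys-7 was by far the most abundant member. This gene is known to be needed for normal resistance to several bacterial pathogens and as a target of the transcription factor DAF-16. It lies on the minus strand of chromosome V at 3481432 to 3482600 (WBcel235), with 3 exons. It took 189448, 205618 and 188270 reads in the Y6B3B.9 libraries, against 45419, 37022 and 51457 in the L4440 libraries. Scaled, this was 5681, 6389 and 7406 CPM under the label Y6B3B.9 and 1819, 1488 and 1768 CPM under the label L4440. The lowest Y6B3B.9 library thus stood well above the highest L4440 library. The ratio of means was 3.84 (log2 change 1.94, SE 0.099, edgeR adjusted p = 1.33e-09), and 94.9% of tested genes had a lower log2 change. Per length, lys-7 stood at 7095 ± 948 RPKM in Y6B3B.9 libraries and 1848 ± 195 RPKM in L4440 libraries (SD, n = 3 each). That level was the highest of the 14265 tested genes under the label Y6B3B.9, and it ranked 28 under the label L4440.

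lys-10 had nearly the same ratio as lys-7 at a far lower level. It is a gene with 1 annotated exon, on the plus strand of chromosome IV at 8332826 to 8333518. It took 496, 713 and 491 reads under the label Y6B3B.9 and 136, 106 and 131 under the label L4440, or 18.8 ± 3.67 CPM against 4.73 ± 0.627 CPM (SD, n = 3 each). The ratio of means was 3.97 (log2 change 1.99, SE 0.15, edgeR adjusted p = 2.77e-08). Per length its mean was 25.6 RPKM in Y6B3B.9 libraries and 6.45 RPKM in L4440 libraries.

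lys-1, lys-2 and lys-3 lie side by side on chromosome V between 10277904 and 10283544, lys-1 on the plus strand and the other two on the minus strand, with 1250 bases between lys-1 and lys-2 and 625 between lys-2 and lys-3. lys-1, known as a gene induced by infection with Serratia marcescens, had 883, 966 and 1022 CPM in Y6B3B.9 libraries and 454, 458 and 431 CPM in L4440 libraries. lys-2 had 574, 566 and 609 CPM in Y6B3B.9 libraries and 264, 277 and 255 CPM in L4440 libraries. Both were about doubled and had narrow ranges within each label: the log2 change was 1.10 for lys-1 (SE 0.060, edgeR adjusted p = 4.00e-10) and 1.14 for lys-2 (SE 0.052, edgeR adjusted p = 8.51e-11). lys-3, the rarest of the cluster, took 184, 167 and 115 reads under the label Y6B3B.9 and 73, 44 and 54 under the label L4440. Its scaled level of 5.08 ± 0.506 CPM against 2.18 ± 0.643 CPM (SD, n = 3 each) gave a change of log2 1.23 (SE 0.18; adjusted p = 1.32e-05 in edgeR), a rise with a wider error than those of its neighbours.

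lys-8, known to be regulated by the TGF-beta ligand DBL-1, lies on the plus strand of chromosome II at 5586178 to 5587651. Its level was 547, 567 and 605 CPM in Y6B3B.9 libraries and 286, 298 and 275 CPM in L4440 libraries, a ratio of 2.00 (log2 change 1.00, SE 0.054, edgeR adjusted p = 4.04e-10). It is about as abundant as lys-2 under both labels. In the current annotation its last exon shares 38 bases with the oppositely oriented gene C17G10.13, which is not among the features of the count table. The libraries were made without strand information, so reads of either gene from that stretch may have been counted for lys-8.

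lys-4, lys-5 and lys-6 form the other cluster, on the minus strand of chromosome IV between 11621429 and 11627947. lys-4 had 58.1, 57.3 and 65.2 CPM in Y6B3B.9 libraries and 45.0, 35.0 and 43.2 CPM in L4440 libraries. This was the smallest rise in the family, with a ratio of 1.47 (log2 change 0.55, SE 0.084, edgeR adjusted p = 4.00e-05), and it ended when the trend of log2 change with gene length was removed (0.07, edgeR adjusted p = 0.436; range over its alternatives 1.42e-13 to 0.436). lys-6 had 57, 44 and 43 reads under the label Y6B3B.9 and 49, 37 and 44 under the label L4440, so the 2 labels overlapped. The fitted change of -0.06 (SE 0.19, adjusted p = 0.785 in edgeR) had an approximate 95% interval of -0.43 to 0.32. The sign was positive with library totals (0.23). With the length trend removed it was lower and past the threshold (-0.54, edgeR adjusted p = 0.0172; range over its alternatives 0.0172 to 0.865).

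lys-5 and lys-9 were close to unread. lys-5 took 1, 4 and 3 reads under the label Y6B3B.9 and 3, 0 and 1 under the label L4440. lys-9, on chromosome I at 12454853 to 12455826, took 1, 0 and 3 reads under the label Y6B3B.9 and the same 3 numbers under the label L4440. A count of 0 in a library allows up to 3 reads, which is 0.0937 to 0.13 CPM in these libraries, unscaled, by counting error alone, so no difference between labels was detectable at this depth for either gene.

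**Figure D2:**
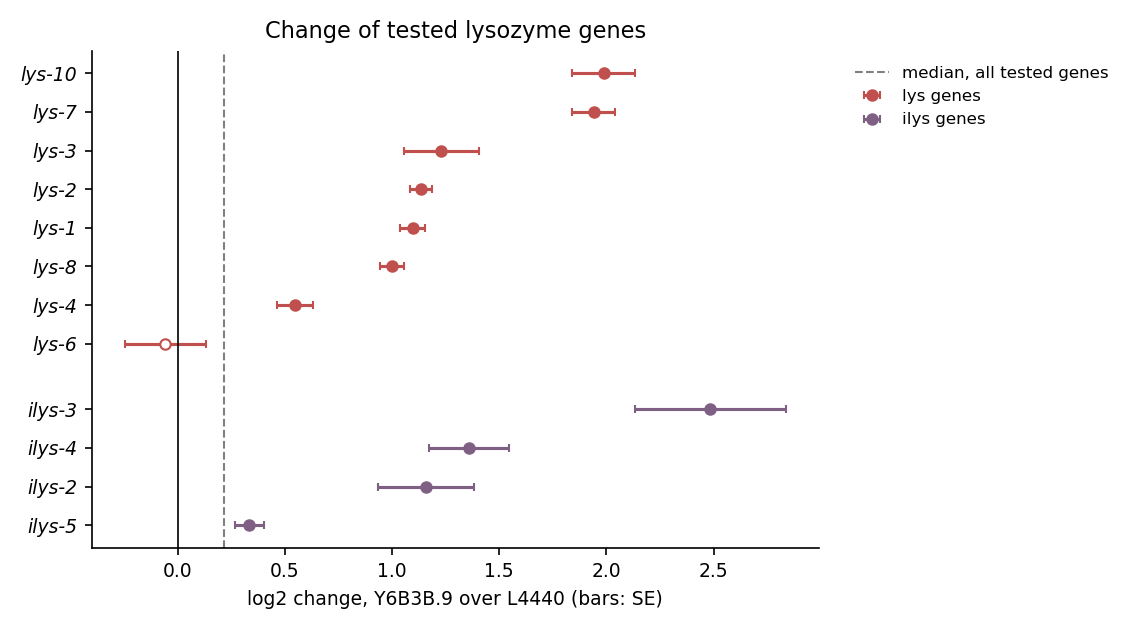
Fitted log2 change (Y6B3B.9 over L4440) of each tested lys and ilys gene with its SE; filled points passed an adjusted p of 0.05, and the dashed line is the median of all tested genes, 0.22. lys-10 and lys-7 lie near 2, lys-3, lys-2, lys-1 and lys-8 near 1, and lys-6 near 0.

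Levels differed more between members than between labels. Per length, the order under the label Y6B3B.9 was lys-7, lys-1, lys-2, lys-8, lys-4, lys-10, lys-3 and lys-6, then lys-5 and lys-9. The first 8 had means of 7095, 865, 631, 582, 83.1, 25.6, 5.51 and 2.24 RPKM in Y6B3B.9 libraries. The same genes, in that order, had means of 1848, 404, 287, 291, 56.7, 6.45, 2.37 and 2.33 RPKM in L4440 libraries. lys-2 and lys-8 were not separated under either label, nor were lys-5 and lys-9, because their ranges over libraries overlapped. lys-3 and lys-6 were separate under the label Y6B3B.9 (ratio 2.46) and overlapped under the label L4440 (ratio 1.02). These levels use the gene lengths behind the authors' RPKM values. They differ from the current annotation most for lys-1 (1107 against 959 bases) and lys-3 (921 against 1121 bases). Smaller differences were found for lys-4 (724 against 788 bases), lys-10 (734 against 693 bases) and, smaller still, the others except lys-6 (709 in both). Such differences change comparisons between genes but not between labels.

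The summed RPKM of the family, with TMM scaling, was 3.20 times as high under the label Y6B3B.9, and lys-7 made up most of it. All lys reads together were 0.863%, 0.946% and 1.07% of counted reads in Y6B3B.9 libraries and 0.261%, 0.229% and 0.253% in L4440 libraries. These shares are not TMM-scaled, and the ratio of their means was 3.87, so the size of the family's rise depends on the scaling. Of the summed RPKM, lys-7 held 74.9%, 76.2% and 77.7% in Y6B3B.9 libraries and 65.1%, 60.2% and 65.6% in L4440 libraries. In Y6B3B.9 libraries lys-1 held 9.34% ± 0.411, lys-2 6.83% ± 0.596, lys-8 6.30% ± 0.401 and lys-4 0.898% ± 0.0593, and in L4440 libraries lys-1 held 14% ± 1.15, lys-2 9.94% ± 0.991, lys-8 10.1% ± 0.986 and lys-4 1.95% ± 0.140 (SD, n = 3 each). These 4 genes rose in level and had smaller shares under the label Y6B3B.9.

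**Figure D3:**
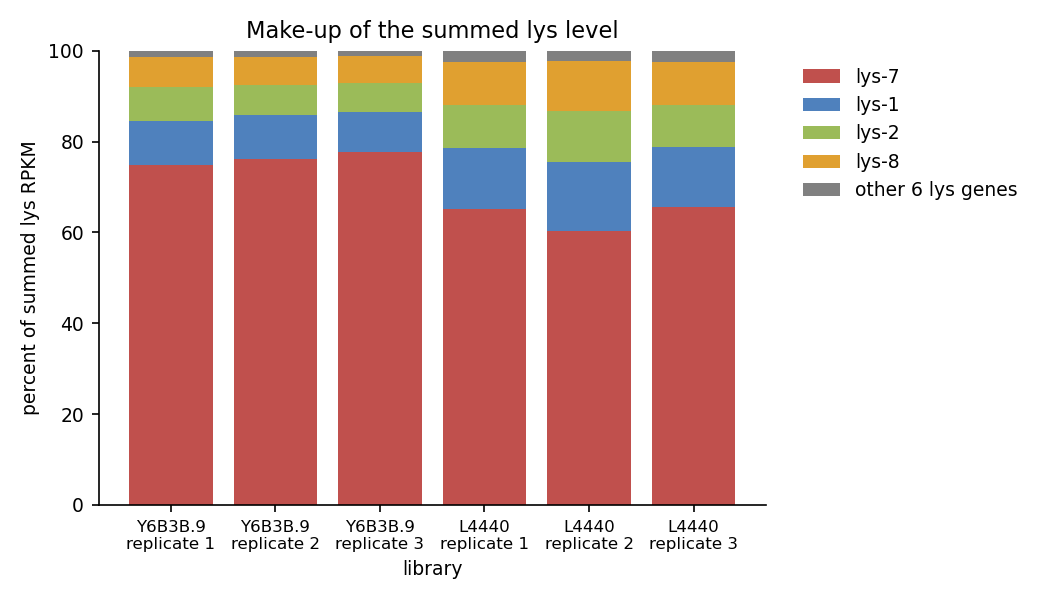
Percent of the summed lys RPKM held by each gene in each library, in stacked bars. The lys-7 part is 74.9% to 77.7% in the Y6B3B.9 libraries and 60.2% to 65.6% in the L4440 libraries.

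Ratios between members within a library do not depend on how libraries are scaled, and they showed how unequal the rises were. For the 6 members with at least 100 reads in every library, 15 pairs were compared by the difference in mean log2 ratio of reads, Y6B3B.9 minus L4440. In 13 pairs the labels did not overlap. Among single tested genes the labels did not overlap for 85.4%, and the share over pairs of all tested genes was not computed. The count of pairs is therefore not read as a trait of the family. The ratio of lys-7 to lys-1 was 1.79 times as high under the label Y6B3B.9 (log2 difference 0.84, SE 0.12), that of lys-7 to lys-8 was 1.92 times as high (0.94, SE 0.14), and that of lys-7 to lys-4 was 2.60 times as high (1.38, SE 0.071). In each of these pairs the ratio was higher in all 3 Y6B3B.9 libraries than in any L4440 library. Between lys-10 and lys-7 the log2 difference was 0.04 (SE 0.15), and between the neighbours lys-2 and lys-1 it was 0.04 (SE 0.049), with overlapping labels in both. lys-2 and lys-1 each changed slightly more than lys-8, with log2 differences of 0.14 (SE 0.022) and 0.10 (SE 0.028). For the 13 pairs, p was 0.1 in an exact two-sided permutation test, the smallest that 3 against 3 libraries allow, and 0.115 after Benjamini-Hochberg adjustment over the 15.

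The log2 changes of genes next to the lys loci lay on both sides of 0. For the nearest tested gene on each side of 5 loci, 10 genes in all (the cluster of lys-1 to lys-3, the cluster of lys-4 to lys-6, lys-7, lys-8 and lys-10, a comparison chosen after the data were seen), log2 changes ran from -1.02 to 1.12 with a median of 0.04. Those beside the lys-1 to lys-3 cluster were ric-4 (0.89, SE 0.13), which rose, and B0024.3 (0.73, SE 0.32, edgeR adjusted p = 0.0436, range over its alternatives 0.00433 to 0.337), whose call ended under 9 of 15 other settings, among them DESeq2's size factors (0.58) and each of Y6B3B.9 replicates 2 and 3 (0.67, 0.58) and L4440 replicates 1 and 2 (0.57, 0.62) left out. Both genes beside the lys-4 to lys-6 cluster fell, with log2 changes of -1.02 (SE 0.048) for Y24F12A.1 and -0.87 (SE 0.078) for F58B3.4. These 4 were named after their values were seen. The gaps between the 10 genes and the lys loci were 153 to 20479 bases. The untested lys-9 was left out.

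The profile most like that of lys-7 belonged to Y37H2A.14, thn-2 and clec-5. Likeness was the root mean square difference of log2 CPM, centred on each gene's mean, over the 6 libraries and 14179 genes with reads in every library. thn-2, of the thaumatin family, had 650, 724 and 857 CPM in Y6B3B.9 libraries and 194, 182 and 186 CPM in L4440 libraries, at a difference of 0.0720. Y37H2A.14 was at 0.0705 and clec-5, a C-type lectin gene, at 0.0779. Among the lys genes lys-10 was nearest, at 0.154 and rank 63, and lys-6 farthest, at 1.01.

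The invertebrate-type lysozymes were the closest comparison by function. Of 6 ilys genes, 4 rose, 0 fell and 2 were not tested, where 46.4% of all tested genes were higher and 37.7% lower. ilys-3, known as a lysozyme of pharynx and intestine, took 43, 53 and 41 reads in Y6B3B.9 libraries and 13, 3 and 5 reads in L4440 libraries, a fitted log2 change of 2.48 (SE 0.35; adjusted p = 1.22e-05 in edgeR). ilys-4 had a log2 change of 1.36 (SE 0.19) and ilys-2 one of 1.16 (SE 0.22), which no longer passed with the length trend removed (0.48, edgeR adjusted p = 0.0637). ilys-5, the abundant member, had 948 ± 99.0 CPM in Y6B3B.9 libraries and 752 ± 21.5 CPM in L4440 libraries (SD, n = 3 each). The fitted change was 0.33 (SE 0.067, adjusted p = 0.000321 in edgeR), against a background median of 0.22, and came to -0.01 with the length trend removed. ilys-1 and ilys-6 took at most 6 reads in any library.

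Saposin-like genes code for small proteins of which some are known to permeabilise bacterial membranes. Of 23 spp genes, 16 rose, 1 fell, 3 were not called and 3 were not tested, with a median log2 change of 0.78, against 46.4% higher, 37.7% lower and a median of 0.22 over all tested genes. spp-2 rose by log2 1.93 (SE 0.073), spp-16 by 1.04 (SE 0.081), spp-10 by 0.87 (SE 0.052) and spp-3 by 0.76 (SE 0.062), the last not called with the length trend removed (0.01). The one that fell, spp-17 (log2 change -0.56, SE 0.062), was named after its values were seen.

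Genes of the DBL-1 pathway, the worm's TGF-beta signal for body size and immunity, included 9 of 11 that rose and 2, daf-4 and sma-9, that fell. The median log2 change was 0.86. Over all tested genes 46.4% were higher and 37.7% lower. crm-1, a positive regulator of DBL-1 signalling outside the cell, rose to 114 ± 6.76 CPM in Y6B3B.9 libraries, against 38.7 ± 4.81 CPM in L4440 libraries (SD, n = 3 each; log2 change 1.55, SE 0.077). sma-4, a Smad that carries the signal to the nucleus, rose by log2 0.96 (SE 0.10), and sma-10, a membrane protein that promotes the signal, rose by 0.90 (SE 0.069). The ligand gene dbl-1, named after its values were seen, took 179, 188 and 125 reads in Y6B3B.9 libraries and 53, 50 and 87 reads in L4440 libraries (log2 change 1.17, SE 0.16, edgeR adjusted p = 7.15e-06). daf-4, the type II receptor, fell to 24.8 ± 0.636 CPM in Y6B3B.9 libraries, against 75.7 ± 0.605 CPM in L4440 libraries (SD, n = 3 each), a log2 change of -1.61 (SE 0.051; adjusted p = 4.60e-12 in edgeR). sma-9, a zinc finger cofactor also named after its values were seen, came to -0.14 on the log2 scale (SE 0.057; adjusted p = 0.0341 in edgeR, range over its alternatives 2.58e-05 to 0.442), and its direction changed with the setting. It was called higher after scaling by library totals (0.15, edgeR adjusted p = 0.0327) and with the length trend removed (0.38, edgeR adjusted p = 2.58e-05). With the filter of at least 1 CPM in 3 libraries it was not called (-0.0458, edgeR adjusted p = 0.442), and the call also ended when Y6B3B.9 replicate 2 (-0.15), Y6B3B.9 replicate 3 (-0.09) or L4440 replicate 3 (-0.13) was left out.

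The p38 MAPK pathway is a main route of intestinal immunity in the worm. Of 6 genes, 2 rose, 3 fell and 1 was not called, with a median log2 change of -0.14. Over all tested genes 46.4% were higher and 37.7% lower, with a median of 0.22. tir-1, the adaptor at the top of the pathway, rose to 83.3 ± 8.77 CPM in Y6B3B.9 libraries, against 17.9 ± 0.691 CPM in L4440 libraries (SD, n = 3 each; log2 change 2.22, SE 0.076). vhp-1, a phosphatase that restrains the pathway, rose by log2 1.23 (SE 0.061). atf-7, the transcription factor at its end, fell to 153 ± 8.44 CPM in Y6B3B.9 libraries, against 312 ± 5.51 CPM in L4440 libraries (SD, n = 3 each; log2 change -1.02, SE 0.051). The kinase genes nsy-1 (-0.34) and sek-1 (-0.33) fell with TMM, neither past the threshold with library totals, and nsy-1 was above 0 with the length trend removed. The kinase gene pmk-1 was at 0.05 (SE 0.060, adjusted p = 0.464 in edgeR), the sign and the call depending on the scaling (-0.10 with DESeq2's size factors and not called, 0.34 with library totals and called).

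Of 8 transcription factors of the intestine and of immunity, 6 rose and 2 fell, with a median log2 change of 1.12, where 46.4% of all tested genes were higher and 37.7% lower. The intestinal GATA factor gene elt-2 had 17.5 ± 1.31 CPM in Y6B3B.9 libraries and 7.94 ± 0.610 CPM in L4440 libraries (SD, n = 3 each), a log2 change of 1.14 (SE 0.093; adjusted p = 3.02e-08 in edgeR). The related genes elt-7 (1.22, SE 0.12) and elt-4 (1.14, SE 0.24, not called with the length trend removed at 0.47) rose as well. zip-2, a bZIP factor of pathogen responses, rose by log2 1.73 (SE 0.057), pqm-1 by 1.10 (SE 0.065) and hlh-30, the worm's TFEB, by 0.33 (SE 0.056). daf-16, the FOXO factor of the insulin pathway, fell (log2 change -0.49, SE 0.051), as did skn-1 (-0.50, SE 0.056). The call of daf-16 ended with the length trend removed (-0.08). These are transcript levels, and the activity of the factors was not measured.

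**Figure D4:**
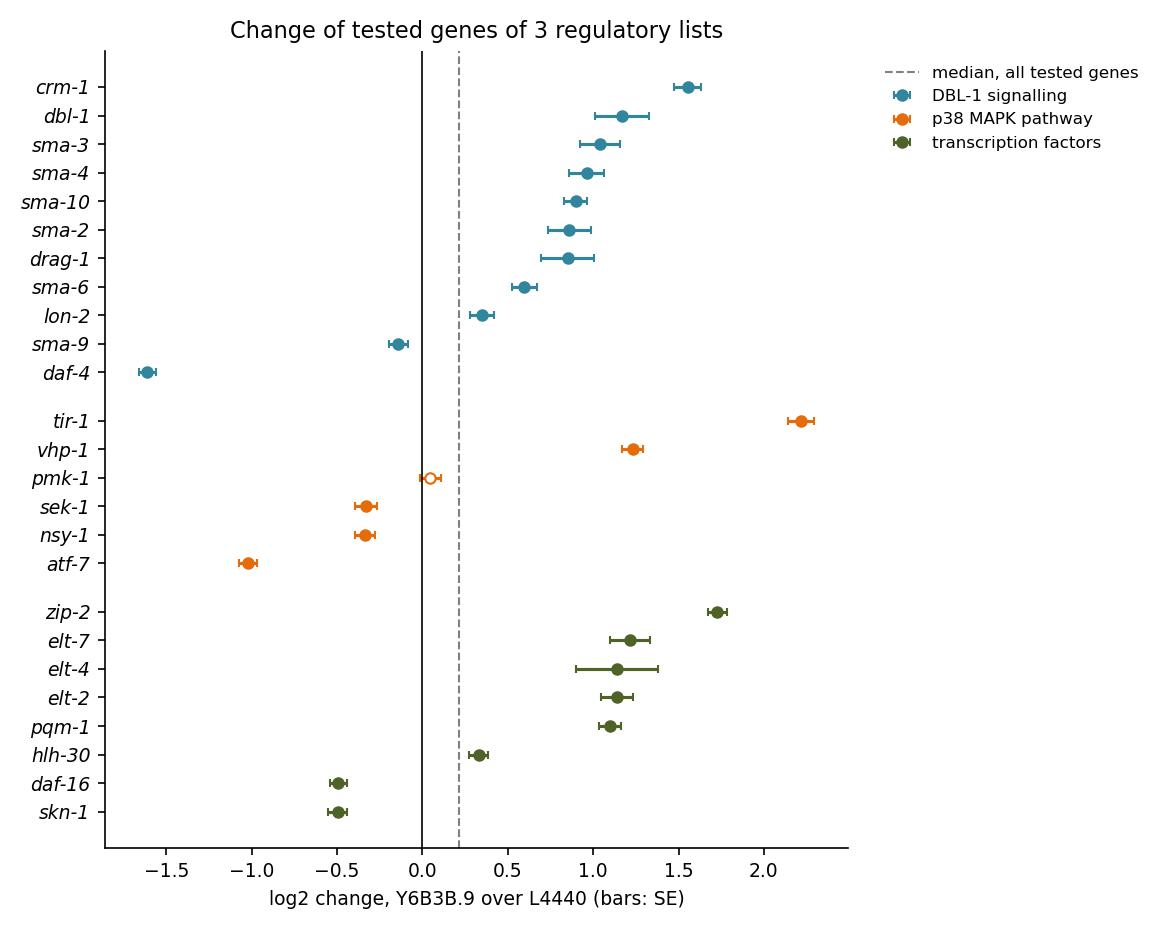
Fitted log2 change (Y6B3B.9 over L4440) with its SE for the tested genes of DBL-1 signalling, the p38 MAPK pathway and the transcription factor list; filled points passed an adjusted p of 0.05, and the dashed line is the median of all tested genes. daf-4 and atf-7 lie farthest to the left, at -1.61 and -1.02, and tir-1 farthest to the right, at 2.22.

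Markers of whole tissues differed between the labels too, and their counts stand against 46.4% higher and 37.7% lower among all tested genes. Of 8 intestine markers (a list that shares elt-2 with the transcription factors), 6 rose and 2 (pept-1 and erm-1, named after their values were seen) fell, with a summed level of 1598 to 1633 CPM in Y6B3B.9 libraries and 1186 to 1254 CPM in L4440 libraries. All 8 germline and oocyte markers fell, with a summed level of 3074 to 3145 CPM in Y6B3B.9 libraries and 6243 to 6476 CPM in L4440 libraries. Of 6 pharynx markers 5 rose and 1 (ceh-22) was not tested, with sums of 96.9 to 107 CPM in Y6B3B.9 libraries and 58.5 to 62.0 CPM in L4440 libraries. Epidermis markers rose in 5 of 5, with sums of 78.3 to 81.7 CPM in Y6B3B.9 libraries and 37.5 to 45.4 CPM in L4440 libraries. Of 5 body wall muscle markers 2 rose and 1 fell, with sums of 1101 to 1219 CPM in Y6B3B.9 libraries and 713 to 887 CPM in L4440 libraries. The median log2 change of these 5 was 0.10, against 0.22 over all tested genes, so the higher sum does not describe the list as a whole. Of 6 neuron markers 4 rose and 1 fell, with sums of 325 to 356 CPM in Y6B3B.9 libraries and 263 to 275 CPM in L4440 libraries. No marker had 0 reads over the 6 libraries. In RNA of whole animals, fewer cells of a type and less RNA per cell cannot be told apart.

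Set against the intestine markers of the same library, lys-7 and lys-10 had the largest ratios of the 8 tested members. The mean log2 CPM of the 8 markers was 0.53 higher under the label Y6B3B.9, but single markers ran from -0.62 (pept-1) and -0.61 (erm-1) to 1.14 (elt-2), 1.19 (ges-1) and 1.23 (ifb-2). The 3 highest rose by about as much as lys-1 (1.10), lys-2 (1.14) and lys-8 (1.00), so the ratios of these members depend on which markers enter the mean. ges-1 and ifb-2 were also named after their values were seen. After it was subtracted in each library, a step chosen after the data were seen, lys-7 was 2.65 times and lys-10 2.73 times as high under the label Y6B3B.9, lys-3 1.65, lys-2 1.52, lys-1 1.48 and lys-8 1.38 times, all without overlap between labels. lys-4 came to a ratio of 1.02 with overlapping labels, and lys-6 to 0.668, with each Y6B3B.9 library below each L4440 library. On this scale 28.1% of all tested genes were higher without overlap and 50.4% lower. The smallest p of an exact two-sided permutation test here was 0.1, or 0.114 adjusted over the 8 genes, the least that the design allows. The part of other tissues in the lys changes was not tested.

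**Figure D5:**
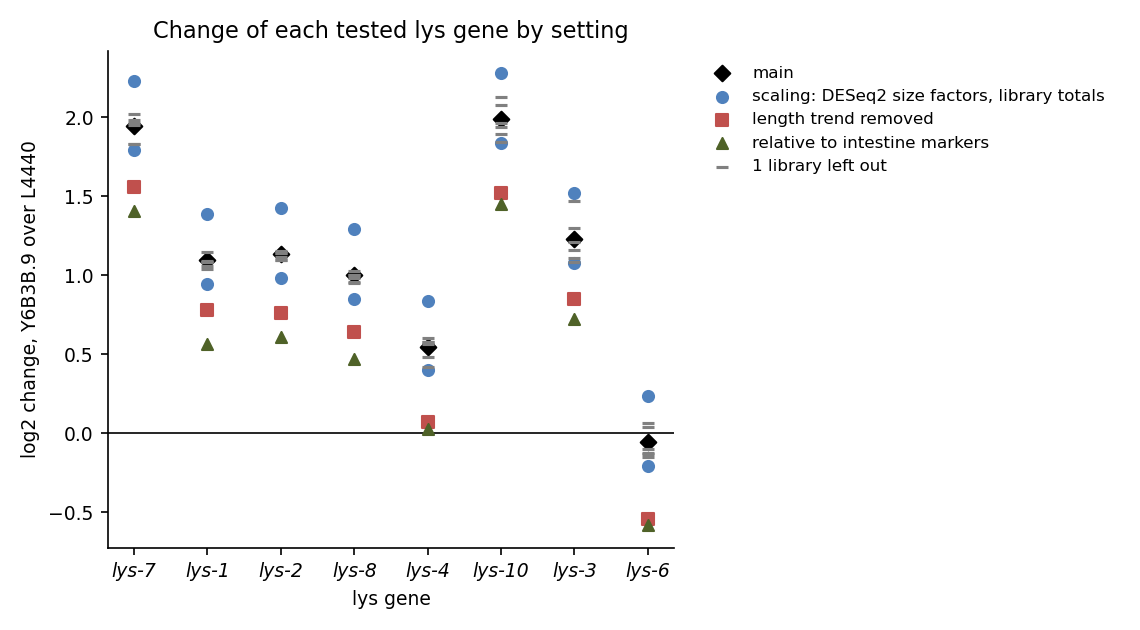
Log2 change (Y6B3B.9 over L4440) of each tested lys gene in the main fit, with 2 other scalings, with the length trend removed, relative to the 8 intestine markers, and with each library left out. lys-7 and lys-10 stay above 1.4 throughout, and lys-4 and lys-6 come near or cross 0.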

How the data were processed

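RNA of whole N2 hermaphrodites was sequenced in 6 libraries, grouped by their perturbation labels. The libraries hold no strand information (TruSeq RNA kit v2, per the labels' protocols). The submitters' processing notes name the build WBcel235, featureCounts 1.4.6-p4, the aligner STAR 2.4.1d and bcl2fastq 1.8.4. Options, strand setting and annotation release: not given in the sources used here. Raw counts per gene were deposited for 46748 features, of which 23350 had no read, with totals of 23103541 to 32012257 per library. The authors also deposited RPKM values, in which library totals were recycled along the table: for 4330 of 4330 genes with at least 1000 reads in each library the implied gene length was constant (within 0.1%) only with recycled totals. These values therefore gave gene lengths alone, and RPKM was recomputed from the counts. Names were matched for 43693 features and positions (Ensembl release 115, WBcel235) for 46449.

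The count test was edgeR 4.0.16 under R 4.3.3 (filterByExpr, TMM, glmQLFit with robust=TRUE, glmQLFTest, Benjamini-Hochberg over 14265 genes, threshold 0.05). A check on simulated data came first, with few genes changed, in both directions. In the data 84.1% of tested genes were called, so the check does not cover so broad a difference. SEs come from the F statistic. Other settings tried were scaling by library totals or by DESeq2's size factors, 2 other filters, robust=FALSE, the DESeq2 1.42.0 Wald test, limma-voom and limma-trend (limma 3.58.1), a loess length trend removed, and each library left out. The members and lists were chosen with earlier results of these data known. Text names all lys members, every gene of lysozyme and regulatory lists of at most 8, and the 4 smallest p of longer ones. It also names 3 genes with profiles like lys-7, and others marked as named after their values were seen. Tissue markers are given as counts and sums, with a median for body wall muscle. Floors cover counting error only, and the interval of lys-6, from its SE, includes the spread between libraries. Whether reads are shared between lys copies was not checked. No sequences are shown.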

Additional observations from a re-analysis of the deposited data

How the results depend on the processing

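No paired analysis was possible because the labels give no replicate numbers: those used here follow the order of deposit, name single libraries and pair none. Of 128 results of 8 lys genes under 16 other settings each (those relative to the intestine markers not counted), 120 kept their direction and their side of the threshold, and all of lys-1, lys-2, lys-3, lys-7, lys-8 and lys-10 did. The range of log2 changes was 1.56 to 2.23 for lys-7, 1.52 to 2.28 for lys-10, 0.78 to 1.39 for lys-1, 0.76 to 1.43 for lys-2, 0.85 to 1.52 for lys-3 and 0.64 to 1.29 for lys-8, in each case lowest with the length trend removed and highest with library totals. The number of members that fell was 0, and 1 with the length trend removed, which was lys-6. lys-6, not called in the main fit, had a positive sign with library totals (0.23), the filter of at least 1 CPM in 3 libraries (0.0377) and limma-trend on log2(RPKM + 0.1) (0.23) or log2(RPKM + 1) (0.16), and between -0.15 and 0.0621 when 1 library was left out. ilys-5 came to -0.0087 with the length trend removed, and nsy-1 to 0.12. For pmk-1 the value was -0.10 under DESeq2's size factors and its Wald test, -0.048 without a filter, -0.0655 with the length trend removed, and -0.0027 to 0.0571 when 1 library was left out. sma-9 was at 0.15 with library totals, 0.14 and 0.13 with limma-trend and pseudocounts of 0.1 and 1, and 0.38 with the length trend removed. The cause was not tested. Without a filter, lys-5 (edgeR adjusted p = 0.566) and lys-9 (adjusted p = 0.857) were not called. Depth limits statements on lys-3, lys-5, lys-6 and lys-9.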
